A study of Mus musculus with 32 samples.

Results

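The interval studied here is the first part of the dark phase in mouse gastrocnemius muscle, between Zeitgeber times (ZT, hours from lights on) 12 and 18. It is covered by 16 of the 32 libraries of the series, the 8 libraries of ZT18 and the 8 libraries of ZT12, chosen by their labelled time alone. At each of these times, 4 libraries came from mutant mice, Sf1-Cre; Sirt1loxP/loxP, and 4 from control mice, which per the series description were Sirt1loxP/loxP without Cre. All mice were 10 weeks old and on a mixed background, and both genotypes carry the floxed Sirt1 alleles. The cross directs the deletion of SIRT1, an NAD-dependent deacetylase, to SF1 neurons of the ventromedial hypothalamus, which were not measured here, so effects of Cre itself and of losing SIRT1 cannot be told apart. The other 16 libraries, of ZT6 and ZT0, served for a comparison with the matching interval of the light phase. No source used here gives the light schedule, and naming ZT12 the start of darkness follows the usual schedule.

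Nocturnal rodents start to move and feed when lights go off, so ZT12 to ZT18 is usually the time of activity and of the main meals. The molecular clock of the muscle runs through the same hours. CLOCK and BMAL1 (encoded by Arntl) activate the Per, Cry and Nr1d genes through E-boxes, PER and CRY proteins repress that activation, and REV-ERB proteins (Nr1d1, Nr1d2) repress Arntl and Clock in competition with ROR activators. REV-ERB-alpha, encoded by Nr1d1, also represses Nfil3, which encodes a repressor that acts at D-boxes against the activators DBP, TEF and HLF. In muscle, corticosterone, insulin, contraction and temperature also vary over the day and act on RNA levels.

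Between ZT18 and ZT12, 100 of 11628 genes differed, of which 69 were higher and 31 were lower at ZT18. The genes that rose included the matricellular gene Cyr61, the monooxygenase gene Fmo2, the alpha-arrestin gene Arrdc3, the mitochondrial carrier gene Slc25a30, the glucose transport regulator Tbc1d1 and the kinase gene Sgk1. Those that fell included the clock repressor Nr1d1, the NAD salvage kinase Nmrk2, the collagen gene Col5a3, and the actin regulators Mkl1 and Vasp. The test was limma on log2(FPKM + 1) with genotype as a covariate, and a gene was called at a Benjamini-Hochberg adjusted p under 0.05. FPKM is a level per transcript length and scaled by the mapped total of the library. The share called was 0.86% of the genes tested, 0.593% higher and 0.267% lower, and 8 called genes differed by 1 or more on the log2 scale. At an unadjusted p under 0.05 there were 1661 genes, 958 higher and 703 lower, and the median difference over all genes was 0.006. By genotype, that median was -0.038 in mutants, with 4917 of 11628 genes above 0. In controls it was 0.045, with 7331 genes above 0. For 24 genes all 8 values of ZT18 lay above all 8 values of ZT12 (0.207% of 11616 genes without missing values), and for 10 all lay below (0.0861%).

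Several properties of the libraries bear on these counts. Per the labels, ZT18 and ZT6 carried one set of index sequences and ZT12 and ZT0 the other, so an effect of the index set cannot be told apart from the difference between ZT18 and ZT12. Relative depth, read from steps in low values, was 0.911 ± 0.101 at ZT18 and 1.01 ± 0.131 at ZT12 (SD, n = 8 each). It was lowest in control mice at ZT18, at 0.837 ± 0.0300 (n = 4). One control library of ZT18 (library 0) stood apart for the clock gene Arntl, with 8.84 FPKM against 1.12 to 3.53 FPKM in the other 7 libraries of ZT18. Without it 220 genes were called, among them all 100. The library was singled out after its values were seen, so passing without it is not a separate test of any gene. Without control ZT18 library 3 the count was 38, and across the 16 fits that each left out 1 library, 35 of the 100 genes passed every time. All 100 kept the sign of their difference in each of 28 alternative fits, and 18 passed in all of them. Mutant ZT12 library 1 lay farthest out on the first principal component, and without it 51 genes were called.

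The tissue carried the RNAs of skeletal muscle at both times. Ckm, the muscle creatine kinase gene, lay between 16678 and 22140 FPKM at ZT18, against 15837 to 21598 FPKM at ZT12. Other muscle genes were less even at ZT12. Tnnt3 lay between 17702 and 32502 FPKM at ZT18, against 2812 to 33494 FPKM at ZT12. Acta1 lay between 18149 and 23751 FPKM at ZT18, against 0 to 23004 FPKM at ZT12, where its exact zeros were set to missing. Sirt1 lay between 5.24 and 6.32 FPKM at ZT18 (median 5.77), against 4.42 to 5.80 FPKM at ZT12 (median 5.47), and did not pass (0.10, SE 0.0584, adjusted p = 0.438). At ZT18 Sirt1 averaged 5.81 ± 0.462 FPKM in mutants and 5.64 ± 0.281 FPKM in controls, and at ZT12 5.39 ± 0.648 FPKM in mutants and 5.18 ± 0.431 FPKM in controls (SD, n = 4 each). These levels describe the muscle and do not check the deletion.

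The 250 bases before the start site are shown for the 4 genes with the smallest p among the leading and the core clock genes, since E-boxes, D-boxes and other sites for the factors named above often lie close to the start site. Capitals mark the motifs found. They are RefSeq sequences of GRCm38.p6, the assembly known as mm10, printed in the direction of transcription. Cyr61 (named Ccn1 in RefSeq) covers chr3:145649986-145650235 on the minus strand, Fmo2 chr1:162898759-162899008 on the minus strand, Nr1d1 chr11:98775378-98775627 on the minus strand, and Arrdc3 chr13:80883172-80883421 on the plus strand.
Cyr61: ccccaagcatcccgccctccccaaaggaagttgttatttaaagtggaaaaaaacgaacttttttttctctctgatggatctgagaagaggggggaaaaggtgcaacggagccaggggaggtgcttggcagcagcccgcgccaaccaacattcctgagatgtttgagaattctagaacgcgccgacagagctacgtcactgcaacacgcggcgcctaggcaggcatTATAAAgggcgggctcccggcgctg
Fmo2: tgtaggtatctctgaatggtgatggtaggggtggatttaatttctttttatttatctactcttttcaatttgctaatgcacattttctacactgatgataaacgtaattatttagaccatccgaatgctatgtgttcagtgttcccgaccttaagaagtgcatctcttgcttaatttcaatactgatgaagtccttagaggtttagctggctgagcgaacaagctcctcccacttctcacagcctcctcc
Nr1d1: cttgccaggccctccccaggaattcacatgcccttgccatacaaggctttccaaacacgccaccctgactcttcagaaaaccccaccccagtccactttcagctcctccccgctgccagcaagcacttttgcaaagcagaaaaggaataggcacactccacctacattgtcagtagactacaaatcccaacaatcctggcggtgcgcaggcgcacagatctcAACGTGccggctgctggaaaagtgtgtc
Arrdc3: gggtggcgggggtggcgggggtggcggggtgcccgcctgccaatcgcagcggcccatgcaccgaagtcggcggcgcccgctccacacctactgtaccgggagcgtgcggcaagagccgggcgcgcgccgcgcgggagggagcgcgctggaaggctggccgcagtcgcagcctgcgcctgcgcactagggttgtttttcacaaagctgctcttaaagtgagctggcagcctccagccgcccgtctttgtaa
The motifs searched on both strands were the TATA box TATAAA, the E-box CACGTG, the E-prime box CACGTT, the D-box TTATGTAA, the ROR element TAGGTCA, the glucocorticoid receptor core ACANNNTGT, the heat shock element GAANNTTC, the cyclic AMP element TGACGTCA and the forkhead site GTAAACA. The glucocorticoid and heat shock motifs have open positions and can overlap others. The Cyr61 window holds a TATA box starting 25 bases before the start site. In the Nr1d1 window AACGTG, the reverse complement of the E-prime box, starts 28 bases before it. None of these letters stand in the windows of Fmo2 and Arrdc3 printed here, although a second RefSeq start of Fmo2 has an E-prime box and a forkhead site. Of 26734 genes with a promoter in the table, 14.3% held the TATA box and 4.53% the E-prime box. Among the 9088 tested genes that matched, the TATA box stood in 8.15%, among 56 called genes higher at ZT18 in 17.9%, and among 28 called lower in 7.14%. The canonical E-box stood in 10.7% of those higher, 14.3% of those lower and 10.2% of the tested genes. For the E-prime box the shares were 5.36% of those higher, 14.3% of those lower (4 genes) and 5.26% of the tested genes. A gene counted where any of its RefSeq starts held the motif. Such matches are descriptions of letters in a window, and no binding was measured.

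Cyr61, Mgp, Angptl7 and Col5a3, which encode secreted or matrix proteins, were called and come from different lists or from none. Cyr61, an immediate early gene whose product is a matricellular ligand of integrins (XLOC_014164, chromosome 3, 145646970 to 145649985 in mm10), lay between 16.2 and 23.4 FPKM at ZT18 (median 19.4), against 8.46 to 11.9 FPKM at ZT12 (median 10.7). The groups did not overlap in either genotype, and the difference was 0.84 (SE 0.0907, adjusted p = 0.000796), the smallest p of all genes tested. Mgp, which encodes an inhibitor of calcification in matrix, lay between 84.1 and 137 FPKM at ZT18 (median 107), against 53.7 to 94.4 FPKM at ZT12 (median 59.7). Its groups overlapped (0.75, SE 0.106, adjusted p = 0.00286). Angptl7, a secreted angiopoietin-like protein gene, had the largest difference among the leading genes, with 26.5 to 201 FPKM at ZT18 (median 79.7) and 5.59 to 52.0 FPKM at ZT12 (median 18.1). Its entry overlaps that of Mtor, and its groups overlapped (1.94, SE 0.410, adjusted p = 0.0369), and it passed in only 4 of the 16 fits that left out a library (adjusted p = 0.0797 without mutant ZT18 library 2). With the mean of the tendon genes as a covariate its difference was 1.01 (adjusted p = 0.0828). Col5a3, which encodes a chain of type V collagen, fell to 3.57 to 8.98 FPKM at ZT18 (median 4.77), against 6.42 to 17.2 FPKM at ZT12 (median 9.93). The groups overlapped, and the difference of -0.92 (SE 0.134, adjusted p = 0.00320) passed in all 16 left-out fits. Of 33 collagen and fibroblast genes, Col5a3 was the 1 called, 22 had differences above 0, and the median was 0.13.

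**Figure D1:**
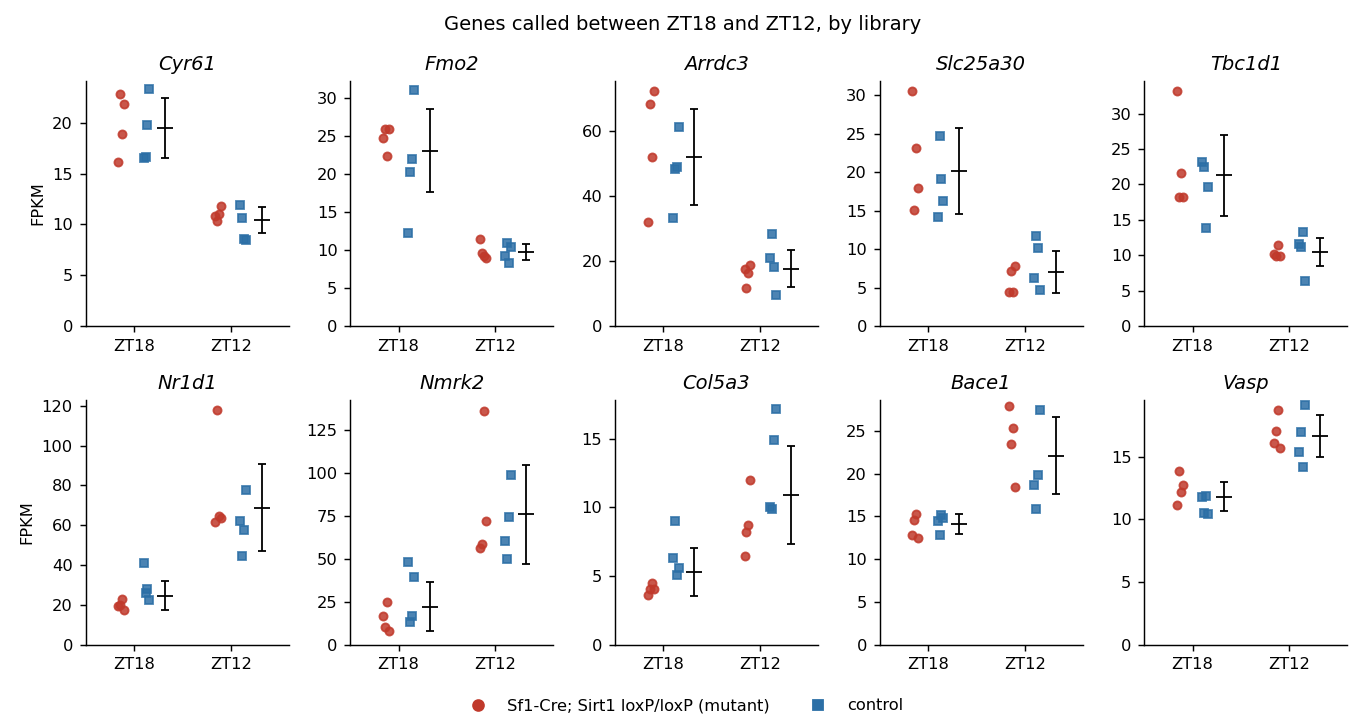
FPKM of 10 leading genes at ZT18 (left) and ZT12 (right), 1 point per library, with mutant and control libraries marked and the mean ± SD of 8 libraries. The upper row holds genes higher at ZT18 and the lower row genes lower at ZT18; of these 10 genes, Col5a3 is the one whose 2 groups overlap.

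Fmo2, Slc25a30, Adh1 and Nmrk2 encode enzymes or carriers of metabolism and come from different lists or from none. Fmo2, a flavin monooxygenase gene (XLOC_001153, chromosome 1, 162875046 to 162898712), rose to 12.3 to 31.0 FPKM at ZT18 (median 23.5), against 8.23 to 11.4 FPKM at ZT12 (median 9.40). The groups did not overlap, and the difference was 1.13 (SE 0.132, adjusted p = 0.00111). Slc25a30, a gene for a carrier of the inner mitochondrial membrane, rose to 14.1 to 30.5 FPKM at ZT18 (median 18.6), against 4.38 to 11.7 FPKM at ZT12 (median 6.67; 1.42, SE 0.198, adjusted p = 0.00286). Adh1, the class I alcohol dehydrogenase gene whose enzyme also oxidises retinol, lay between 33.2 and 53.5 FPKM at ZT18 (median 46.6), against 18.4 to 32.8 FPKM at ZT12 (median 22.4; 0.83, SE 0.115, adjusted p = 0.00286). Neither carrier nor dehydrogenase overlapped between the times. Nmrk2, the muscle nicotinamide riboside kinase gene of NAD salvage, fell to 7.98 to 47.9 FPKM at ZT18 (median 16.5), against 49.7 to 137 FPKM at ZT12 (median 66.6). Its groups did not overlap (-1.89, SE 0.310, adjusted p = 0.00771), and its entry overlaps Atcay and Atcayos, so their reads may not be separable. Nampt, the gene of the rate-limiting enzyme of NAD salvage, lay between 64.1 and 108 FPKM at ZT18 (median 70.0) and between 43.4 and 68.1 FPKM at ZT12 (median 55.2), and did not pass (0.40, adjusted p = 0.0967). Nmrk2 was the 1 called gene among 16 of NAD metabolism and the sirtuins, of which 7 had differences above 0.

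Tbc1d1, Hk2 and Ppp1r3a, which act in glucose uptake and storage, rose, and each was the 1 called gene of its list. Tbc1d1, a Rab GTPase-activating protein gene through which AMPK and insulin signals reach the glucose transporter GLUT4, rose to 13.8 to 33.3 FPKM at ZT18 (median 20.6), against 6.39 to 13.3 FPKM at ZT12 (median 10.7). The groups did not overlap (0.94, SE 0.149, adjusted p = 0.00619). Of the 20 insulin and IGF signalling genes in the list of Tbc1d1, 10 had differences above 0 (median 0.01, with -0.10 in mutants and 0.11 in controls). Over all genes tested the medians were -0.038 in mutants and 0.045 in controls. Hk2, which encodes the hexokinase that traps glucose in muscle, rose to 110 to 149 FPKM at ZT18 (median 117), against 58.9 to 103 FPKM at ZT12 (median 90.2). Its groups did not overlap either (0.53, SE 0.105, adjusted p = 0.0292). Hk2 did not pass without mutant ZT18 library 1 or 2, control ZT18 library 1 or 3, or mutant ZT12 library 0, with an adjusted p of up to 0.0733. Ppp1r3a, the muscle subunit that targets protein phosphatase 1 to glycogen, lay between 112 and 137 FPKM at ZT18 (median 127), against 78.2 to 118 FPKM at ZT12 (median 98.0; 0.37, SE 0.0811, adjusted p = 0.0440). It passed in 4 of the 16 left-out fits (adjusted p = 0.0913 without mutant ZT18 library 1). Of 25 genes of glucose uptake and glycolysis 1 was called and 19 had differences above 0 (median 0.10; 51.9% of all genes tested did), and of 16 glycogen genes 1 was called and 11 had differences above 0 (median 0.11). Pfkfb3, a gene for the enzyme that makes the activator of phosphofructokinase, went against this order without passing, with 17.4 to 79.0 FPKM at ZT18 (median 48.5) and 34.6 to 145 FPKM at ZT12 (median 77.7; -0.70, adjusted p = 0.210). Of 28 genes of the fasting fuel switch none was called and 22 had differences above 0 (median 0.12). Of 27 genes of fatty acid and sterol synthesis none was called and 6 had differences above 0 (median -0.19, with -0.23 in mutants and -0.05 in controls). Their summed level varied widely, from 380 to 2469 FPKM in mutants at ZT12 alone. The part of fat cells in this list was not tested.

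**Figure D2:**
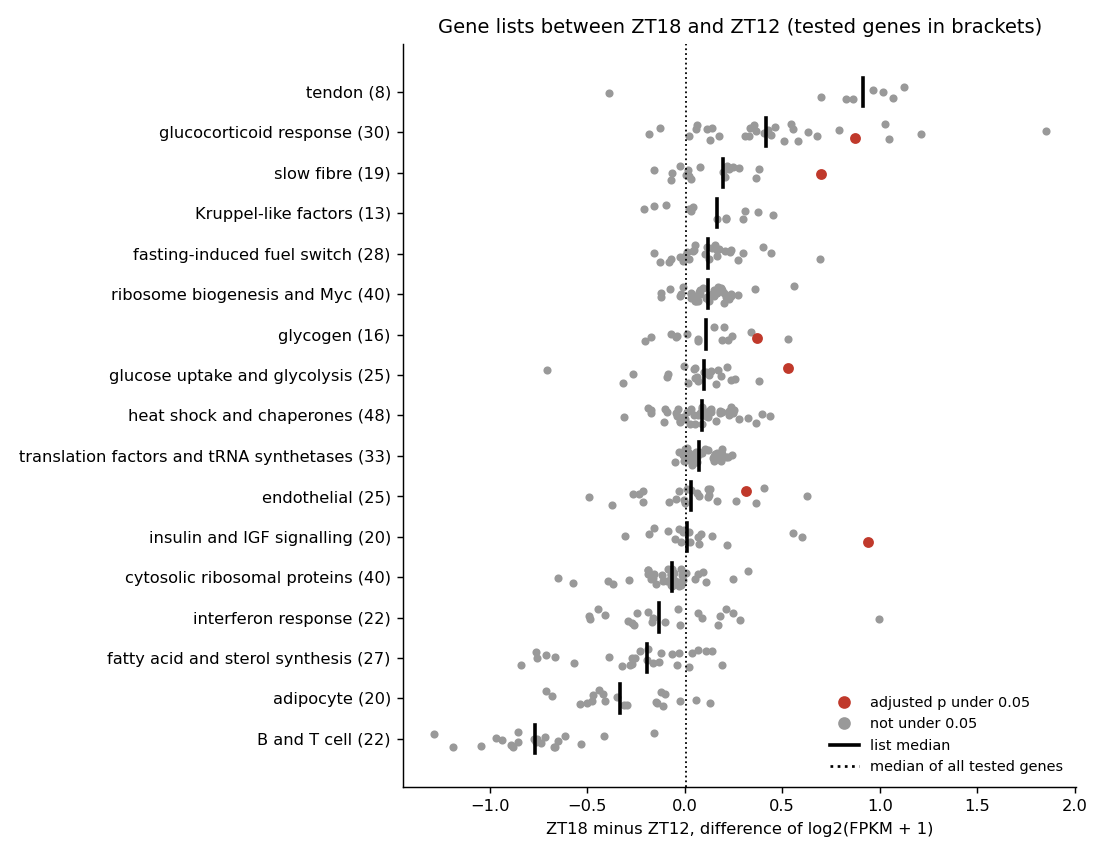
Log2 difference between ZT18 and ZT12 for every tested member of 17 gene lists, 1 dot per gene, red where called, with a bar at the list's median and a dotted line at the median of all genes. The tendon and glucocorticoid lists have medians of 0.91 and 0.42, and the B and T cell list -0.77.

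Arrdc3, Socs2, Kcnf1 and Jun, which act in signalling or excitability, were called, Socs2 and Kcnf1 from no list. Arrdc3, an alpha-arrestin gene whose product sorts membrane receptors such as the beta-adrenergic receptor for degradation, rose to 31.9 to 72.2 FPKM at ZT18 (median 50.5), against 9.40 to 28.2 FPKM at ZT12 (median 17.9). Its groups did not overlap (1.52, SE 0.210, adjusted p = 0.00286). Arrdc2, of the same family, lay between 17.7 and 50.1 FPKM at ZT18 (median 35.8) and between 3.36 and 39.5 FPKM at ZT12 (median 16.7) and did not pass (1.05, adjusted p = 0.166). Arrdc4 (0.05) and Arrdc1 (-0.36) did not pass either, so Arrdc3 was the 1 called among 5 genes of the family. Socs2, a feedback inhibitor of growth hormone signalling, rose to 3.55 to 9.98 FPKM at ZT18 (median 6.54), against 1.69 to 3.24 FPKM at ZT12 (median 2.97), with no overlap (0.95, SE 0.144, adjusted p = 0.00455). Kcnf1, which encodes a modifying subunit of voltage-gated potassium channels, lay between 3.53 and 10.96 FPKM at ZT18 (median 7.81), against 1.89 to 3.94 FPKM at ZT12 (median 2.48; 1.13, SE 0.182, adjusted p = 0.00666). None of the 22 tested genes of the channel and excitability list was called. Jun, an immediate early gene of the AP-1 complex, was called with Cyr61 among 25 immediate early genes (0.55, SE 0.122, adjusted p = 0.0460), of which 16 had differences above 0 (median 0.16). It passed in 4 of 16 left-out fits (adjusted p = 0.101 without mutant ZT18 library 2).

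Sgk1, a kinase gene induced by glucocorticoids and insulin, rose to 103 to 159 FPKM at ZT18 (median 127), against 41.2 to 111 FPKM at ZT12 (median 66.6). The groups overlapped, since the highest ZT12 library passed the lowest of ZT18, and the difference was 0.87 (SE 0.154, adjusted p = 0.0141). Sgk1 was the 1 gene called of 30 glucocorticoid-responsive genes, but 28 of the 30 had differences above 0, against 6034 of all 11628 genes, and their median was 0.42. Ddit4, an inhibitor of mTORC1, lay between 9.29 and 105 FPKM at ZT18 (median 63.0) and between 6.98 and 57.7 FPKM at ZT12 (median 11.2), a difference of 1.85 that did not pass (adjusted p = 0.0804). Errfi1, a feedback inhibitor of the EGF receptor, lay between 12.9 and 24.1 FPKM at ZT18 (median 20.3) and between 10.2 and 16.9 FPKM at ZT12 (median 12.0; 0.55, adjusted p = 0.0526). Pik3r1, the regulatory subunit of PI3-kinase, differed by 0.56 (adjusted p = 0.0568) and the transcription factor gene Klf9 by 0.31 (adjusted p = 0.0744). These 3 genes passed without control ZT18 library 0, with adjusted p = 0.0108 for Errfi1, 0.0160 for Pik3r1 and 0.0433 for Klf9. Of the 16 left-out fits, Errfi1 passed in 3, Pik3r1 in 2 and Klf9 in 1, with adjusted p of up to 0.114, 0.119 and 0.148. The classic target Per1 differed by 0.13 (adjusted p = 0.804). Summed over the list, the level lay between 1143 and 1806 FPKM in mutants and between 1422 and 2020 FPKM in controls at ZT18, and between 928 and 1316 FPKM in mutants and between 885 and 1404 FPKM in controls at ZT12.

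Mkl1 and Vasp, which act on actin dynamics, fell, and Lmod2, a thin filament gene, rose. Mkl1, which encodes the actin-sensing coactivator of serum response factor, fell to 7.07 to 9.91 FPKM at ZT18 (median 7.94), against 8.96 to 16.1 FPKM at ZT12 (median 12.7; -0.59, SE 0.105, adjusted p = 0.0141). Its groups overlapped, and its entry overlaps Sgsm3. Vasp, an actin filament elongation factor gene, fell to 10.4 to 13.9 FPKM at ZT18 (median 11.8), against 14.2 to 19.2 FPKM at ZT12 (median 16.6), with no overlap (-0.46, SE 0.0665, adjusted p = 0.00286). Lmod2, which encodes leiomodin-2, a protein that sets the length of sarcomeric thin filaments, lay between 109 and 169 FPKM at ZT18 (median 126), against 49.2 to 116 FPKM at ZT12 (median 77.8; 0.70, SE 0.145, adjusted p = 0.0347). It passed in 5 of the 16 left-out fits (adjusted p = 0.0793 without control ZT18 library 3), and its difference was 0.95 in mutants and 0.45 in controls. Lmod2 was the 1 called of 19 slow fibre genes, 15 of which had differences above 0 (median 0.20; 0.37 in mutants and -0.08 in controls). All genes tested had medians of -0.038 in mutants and 0.045 in controls.

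Bace1, the beta-secretase gene, fell to 12.5 to 15.3 FPKM at ZT18 (median 14.5), against 15.9 to 27.9 FPKM at ZT12 (median 21.6), with no overlap (-0.60, SE 0.105, adjusted p = 0.0137). Ccdc50, which encodes a ubiquitin-binding protein, fell to 22.4 to 38.3 FPKM at ZT18 (median 30.4), against 39.2 to 50.3 FPKM at ZT12 (median 45.7), again with no overlap (-0.58, SE 0.0997, adjusted p = 0.0120). Both passed in every left-out fit. The remaining leading genes lost their call without 1 or more of the libraries, with adjusted p-values of up to 0.104 (Slc7a2 without mutant ZT18 library 3). Among those higher at ZT18 these included the endosomal GTPase gene Rhob (0.90, adjusted p = 0.0274), the methyltransferase gene Inmt (0.87, 0.0309) and Slc7a2, a transporter of cationic amino acids (0.84, 0.0499), which passed in 8, 5 and 1 of the 16 left-out fits. Among those lower, Fam20c, a kinase gene of the secretory pathway (-0.43, adjusted p = 0.0232), passed in 13, and Lime1 (-0.38, 0.0291) in 9. Cited4 (-0.61, 0.0411), Sec14l5 (-0.55, 0.0373), Lingo3 (-0.53, 0.0347), Tnfaip2 (-0.51, 0.0460), the semaphorin receptor gene Plxnd1 (-0.38, 0.0435) and Mtss1l (-0.32, 0.0419) each passed in 3 to 6. The 18 genes that passed in all 28 alternatives were Cyr61, Fmo2, Adh1, Arrdc3, Slc25a30, Kcnf1, Tbc1d1, Mgp, Nr1d1, Col5a3, Bace1, Mkl1 and Vasp, with Hivep2, Nudt18, Ptpn3, Slc12a2 and Tle4, which were singled out after their values were seen. In all, 16 of the 100 called genes stood in any of the 49 gene lists, 15 lists held a called gene, and 84 called genes stood in none.

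Most core clock genes did not pass. Of 19 core clock genes tested, Nr1d1 was lower and Nfil3 higher at ZT18 with a called difference, 9 had an unadjusted p under 0.05, and 11 had differences above 0. Nr1d1, the REV-ERB-alpha gene (XLOC_003970, chromosome 11, 98767931 to 98775377), had 19.2, 19.8, 23.0 and 17.4 FPKM in mutants and 41.0, 26.1, 27.9 and 22.6 FPKM in controls at ZT18, against 61.5, 118, 64.6 and 63.7 FPKM in mutants and 62.1, 44.4, 57.7 and 77.5 FPKM in controls at ZT12. All 8 values of ZT18 lay below all 8 of ZT12, though control ZT18 library 0 came close to the lowest of ZT12 (-1.44, SE 0.181, adjusted p = 0.00208). Nfil3, a repressor at D-boxes and itself a target of REV-ERB, lay between 8.93 and 18.0 FPKM at ZT18 (median 14.8), against 6.07 to 12.5 FPKM at ZT12 (median 6.87; 0.75, SE 0.147, adjusted p = 0.0274). Its groups overlapped, and it passed in 10 of the 16 left-out fits, failing without mutant ZT18 library 1 or 3, control ZT18 library 1 or 3, mutant ZT12 library 1 or control ZT12 library 0 (adjusted p of up to 0.0733). Nr1d2, the second REV-ERB gene, differed by 0.12 (adjusted p = 0.523).

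None of the 3 activator genes tested passed, and 1 of them had a difference above 0. Arntl had 1.48, 1.51, 1.52 and 1.13 FPKM in mutants and 8.84, 3.53, 1.12 and 1.51 FPKM in controls at ZT18, against 2.60, 4.72, 3.29 and 3.76 FPKM in mutants and 5.09, 2.88, 5.02 and 5.59 FPKM in controls at ZT12. The 4 mutant values of ZT18 lay below all of ZT12, while 2 control values did not (-0.70, SE 0.244, adjusted p = 0.190). Clock lay between 3.74 and 6.49 FPKM at ZT18 (median 4.63) and between 5.39 and 7.30 FPKM at ZT12 (median 6.34; -0.34, adjusted p = 0.0710). Without control ZT18 library 0, which has the highest Arntl value, Arntl differed by -0.92 (adjusted p = 0.00832) and Clock by -0.39 (adjusted p = 0.0154), and both passed. Since that library was singled out by its Arntl value, the fit without it does not test Arntl or the other clock genes. Each gene passed in only 1 of the 16 left-out fits, with adjusted p of up to 0.318 for Arntl and 0.140 for Clock. Arntl2, a paralogue of Arntl, was low at both times, with a median of 0.831 FPKM at ZT18 and 0.684 FPKM at ZT12 and overlapping groups (0.12, adjusted p = 0.659).

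Among the repressors, Per2 lay between 4.88 and 11.6 FPKM at ZT18 (median 8.76) and between 1.94 and 7.77 FPKM at ZT12 (median 4.70), a difference of 0.74 that did not pass (SE 0.190, adjusted p = 0.0806). It passed in 2 of the 16 left-out fits, among them that without control ZT18 library 0 (0.84, adjusted p = 0.0278). That library was singled out by the value of another clock gene, so this fit does not test Per2. In the other fits the adjusted p reached 0.160. Cry1 lay between 5.46 and 7.81 FPKM at ZT18 (median 6.59) and between 3.18 and 6.20 FPKM at ZT12 (median 4.83; 0.38, adjusted p = 0.0746). The groups of both genes overlapped. The entries of Clock, Cry2, Ciart, Rora, Bhlhe40 and Dbp overlap other genes, with which they may share reads. Per3 (0.19), Per1 (0.13), Cry2 (0.11) and Ciart (-0.54) did not pass. Per1 and Cry2 changed sign with relative depth as a covariate. Nor did the ROR gene Rora (0.16), or the output genes Hlf (0.28), Tef (0.19), Dbp (-0.12), Bhlhe41 (-0.15) and Bhlhe40 (-0.31). The Dbp difference changed sign without control ZT18 library 0 and with array weights.

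**Figure D3:**
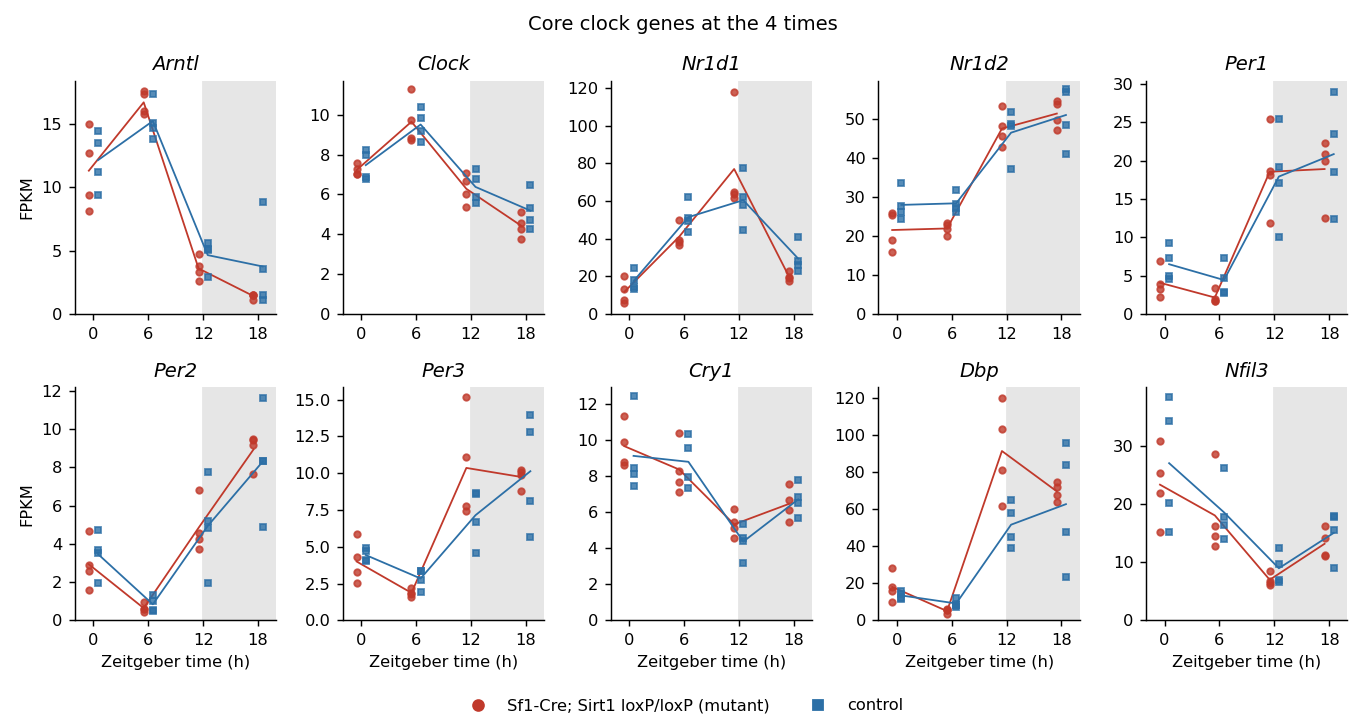
FPKM of 10 core clock genes at ZT0, ZT6, ZT12 and ZT18 (hours on the x axis), 1 point per library, with lines through the means of mutant and control mice and grey for the dark phase. The Nr1d1 mean of 8 libraries is 68.7 FPKM at ZT12 and 24.6 FPKM at ZT18, and control ZT18 library 0 stands out in Arntl at 8.84 FPKM.

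Read over the day, most called differences had the opposite sign in the light phase. Of the 100 called genes, 91 had the opposite sign between ZT6 and ZT0, against 49.6% of all genes tested, and 42 of them were also called for that interval, where 428 genes were called in all. The intervals share no library. The 9 genes with the same sign included none called for ZT6 against ZT0. Fmo2 averaged 21.6 ± 4.39 FPKM at ZT0 and 8.46 ± 1.11 at ZT6, followed by 9.73 ± 1.07 at ZT12 and 23.0 ± 5.46 at ZT18 (SD, n = 8 each), so that its means at ZT6 and ZT12 lay below those at ZT0 and ZT18. Adh1 had the same order of fall and rise, with 30.0 ± 5.09 FPKM at ZT0 and 13.1 ± 0.798 at ZT6, followed by 24.1 ± 4.46 at ZT12 and 43.5 ± 7.24 at ZT18. Col5a3 ran the other way, with 7.35 ± 2.08 FPKM at ZT0 and 15.2 ± 1.76 at ZT6, followed by 10.9 ± 3.59 at ZT12 and 5.26 ± 1.75 at ZT18. Nr1d1 averaged 14.6 ± 6.23 FPKM at ZT0 and 46.3 ± 8.46 at ZT6, followed by 68.7 ± 21.9 at ZT12 and 24.6 ± 7.49 at ZT18. Kcnf1, Sgk1, Socs2, Rhob and Slc25a30 had smaller differences between ZT6 and ZT0, -0.02 for Kcnf1, -0.05 for Sgk1, -0.09 for Socs2, -0.01 for Rhob and -0.20 for Slc25a30, none of which passed.

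The difference between the 2 intervals, ZT18 minus ZT12 less ZT6 minus ZT0, was tested in a fit over all 32 libraries and passed for 669 genes (5.75% of those tested), 450 above 0 and 219 below. An effect of the index set drops out of this contrast. Of the 100 called genes, 91 passed it, although this contrast contains the difference that chose them. Fmo2 differed by 2.37 and Adh1 by 1.95 (adjusted p = 9.73e-10 each), Nr1d1 by -3.13 (adjusted p = 7.3e-09), and Arrdc3 by 2.50 and Col5a3 by -1.91 (adjusted p = 3.11e-07 each). Of the 19 core clock genes 9 passed, among them Per2 (1.98, adjusted p = 2.36e-05), Clock (-0.68, adjusted p = 0.000103), Arntl (-1.14, adjusted p = 0.0134) and Cry1 (0.50, adjusted p = 0.0354), none of which had passed for ZT18 against ZT12 alone. The contrast also holds the light-phase difference, so passing it does not show that a gene differed between ZT18 and ZT12. Of the glucocorticoid-responsive genes, Klf9 (0.76, adjusted p = 1.47e-05), Pik3r1 (1.04, adjusted p = 0.000492) and Sgk1 (0.93, adjusted p = 0.00863) passed, and Errfi1 did not (0.51, adjusted p = 0.0878).

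**Figure D4:**
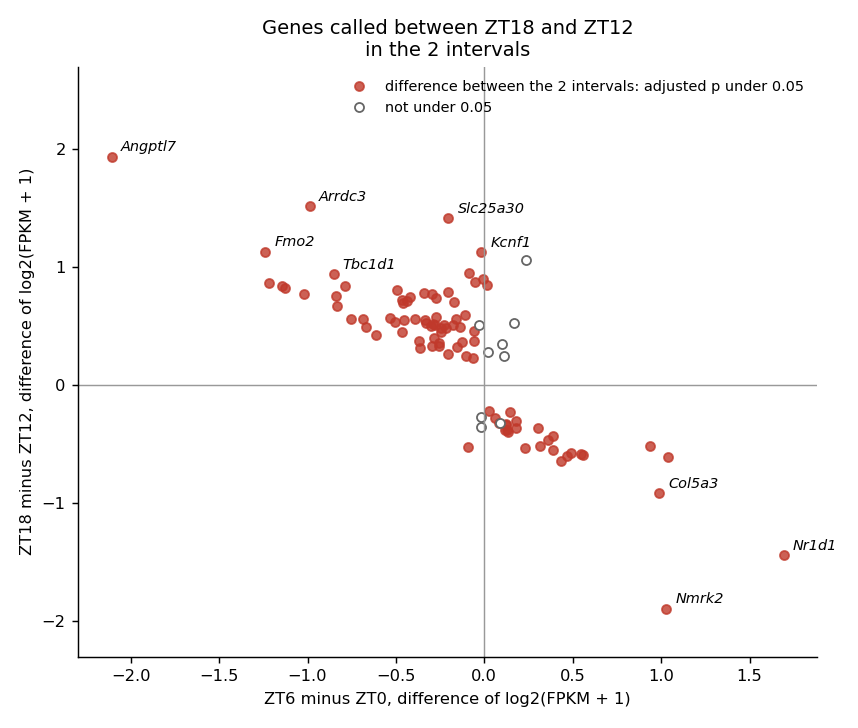
Log2 difference between ZT18 and ZT12 (y axis) against that between ZT6 and ZT0 (x axis) for the 100 called genes, 1 point per gene, red where the difference between the intervals passed (91 genes). Of the 100 points, 91 have opposite signs on the 2 axes.

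No gene passed the test of whether the difference between ZT18 and ZT12 depended on genotype (0% of 11628 genes, smallest adjusted p = 0.103). At an unadjusted p under 0.05 there were 1301 genes, 216 where mutants less controls lay above 0 and 1085 below. By the same test, 1 gene passed with array weights, and 38 passed without mutant ZT12 library 3. Taken alone, 12 genes passed in mutants (0.103%) and 2 in controls (0.0172%), Cyr61 and Fam212a, the last of which was named after its values were seen. Without mutant ZT12 library 3, the count in mutants was 379. The 100 called genes had the same sign in both genotypes, and the call was made over both together. Nr1d1 had a difference of -1.85 in mutants and -1.02 in controls, and the dependence on genotype did not pass (-0.83, adjusted p = 0.398). Park2, which encodes the ubiquitin ligase parkin, had 2.31, 2.31, 2.46 and 1.88 FPKM in mutants and 2.85, 2.39, 2.11 and 2.54 FPKM in controls at ZT18, against 8.38, 6.99, 7.58 and 6.41 FPKM in mutants and 2.59, 2.27, 2.25 and 5.33 FPKM in controls at ZT12. The mutant values of ZT12 lay above all others. The difference was -1.36 in mutants and -0.19 in controls, and the dependence on genotype did not pass (-1.18, SE 0.239, adjusted p = 0.295). Park2 was named for its small p in this test. It passed in only 1 of the 16 left-out fits, without control ZT12 library 3 (-1.40, adjusted p = 0.000659), which holds its highest control value. In the other fits the adjusted p reached 0.585. Bet1, a SNARE gene of transport from the endoplasmic reticulum, differed by -0.32 in mutants and 0.34 in controls (difference -0.67, adjusted p = 0.295). Without mutant ZT12 library 3, Bet1, the transcription regulator gene Dr1, Opn1mw and the Golgi GTPase gene Rab6a passed (adjusted p = 0.0493 each). Each passed in only that 1 of the 16 left-out fits, with adjusted p of up to 0.568, 0.585, 0.526 and 0.594 in the same order.

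No tendon, B and T cell or adipocyte marker passed, but the medians of these lists lay away from that of all genes. In bulk tissue fewer cells of a type and less RNA per cell cannot be told apart. Of 8 tendon genes tested, 7 had differences above 0 (median 0.91) and none was called. Their summed level lay between 148 and 568 FPKM at ZT18 (median 305), against 84.4 to 375 FPKM at ZT12 (median 147). Tnmd, the tenomodulin gene, lay between 7.001 and 42.0 FPKM at ZT18 (median 23.7) and between 4.06 and 25.7 FPKM at ZT12 (median 8.24; 1.07, adjusted p = 0.185), and Thbs4 differed by 1.01 (adjusted p = 0.0568). Scx, the tendon transcription factor gene, had a difference of -0.39 (adjusted p = 0.161). Thbs4 and the cartilage matrix gene Comp passed without control ZT18 library 0 (adjusted p = 0.0276 for Thbs4 and 0.0464 for Comp). They passed in 2 and 1 of the 16 left-out fits, with adjusted p of up to 0.122 and 0.251. With the tendon covariate 44 genes were called, 31 of them among the 100. The part of tendon RNA in the calls lost was not tested.

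All 22 B and T cell genes tested had differences below 0 (median -0.77), and none was called. Their summed level lay between 8.13 and 77.8 FPKM at ZT18 (median 12.8), against 10.1 to 177 FPKM at ZT12 (median 91.4), so that the groups overlapped. Medians of the sum differed by genotype, though the ranges of the genotypes overlapped at both times, and the list was not tested for this. The median sum was 60.9 FPKM at ZT18 and 94.2 FPKM at ZT12 in mutants, and 12.2 and 56.7 FPKM in controls. The list's median difference was -0.51 in mutants and -1.08 in controls. Of 20 adipocyte genes 2 had differences above 0 (median -0.33), and none was called. Ucp1, a marker of brown fat, lay between 0.536 and 59.5 FPKM at ZT18 (median 7.61), against 0.732 to 165 FPKM at ZT12 (median 33.8). With both lists as covariates 60 genes were called, 44 of them among the 100. Of 25 endothelial genes, Flt1, a receptor gene for vascular endothelial growth factor, was called (0.32, SE 0.0692, adjusted p = 0.0432) and passed in 2 of the 16 left-out fits. With relative depth as a covariate 36 genes were called, 35 of them among the 100. The part of lymphoid, fat or depth differences in the calls was not tested.

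**Figure D5:**
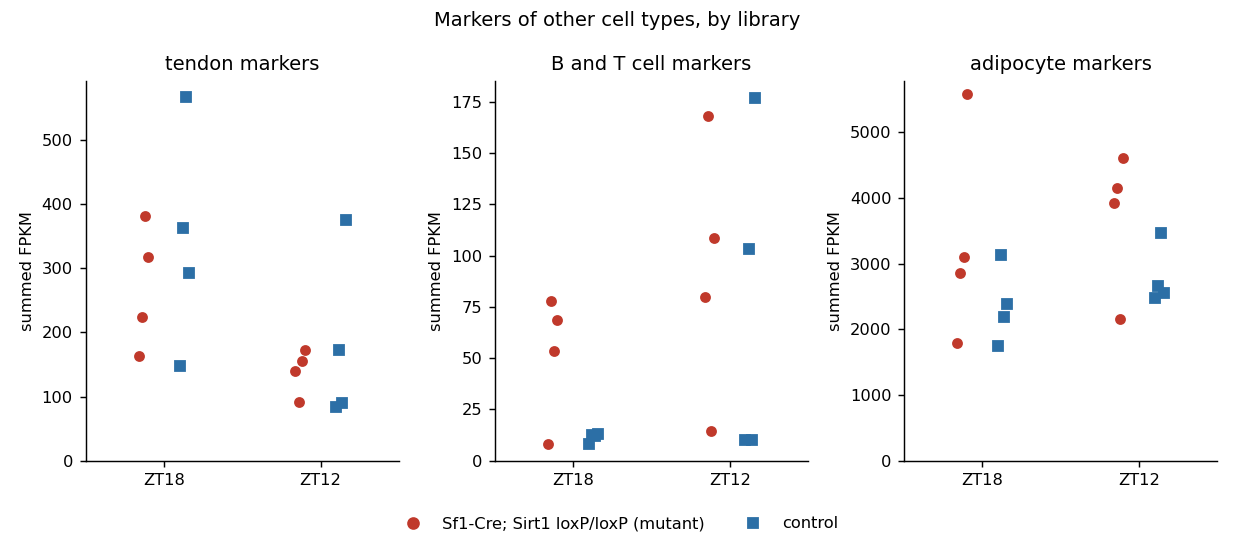
Summed FPKM of the tendon, B and T cell, and adipocyte lists in each library of ZT18 (left) and ZT12 (right), with mutant and control libraries marked. The tendon sums have medians of 305 at ZT18 and 147 at ZT12, and the B and T cell sums 12.8 at ZT18 and 91.4 at ZT12. By genotype, the B and T cell medians at ZT18 and ZT12 are 60.9 and 94.2 in mutants and 12.2 and 56.7 in controls. The groups of ZT18 and ZT12 overlap in each panel.

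In the lists that follow no member passed, and the counts above 0 stand against 51.9% of all genes tested. Medians by genotype stand against -0.038 in mutants and 0.045 in controls over all genes tested. Of 40 ribosome biogenesis genes 34 had differences above 0 (median 0.12, with 0.15 in mutants and 0.07 in controls). Of 33 translation factor genes 29 did (median 0.07, with 0.11 in mutants and 0.06 in controls). Of 40 cytosolic ribosomal protein genes 7 did (median -0.07), but their median was -0.17 in mutants and 0.04 in controls. Among the ribosome biogenesis genes, Fbl, the fibrillarin gene of ribosomal RNA methylation, lay between 5.37 and 7.88 FPKM at ZT18 (median 5.84). At ZT12 Fbl lay between 3.46 and 6.18 FPKM (median 4.38), and its difference of 0.36 did not pass (adjusted p = 0.0967). Of 48 heat shock and chaperone genes 34 had differences above 0 (median 0.09). Of 20 atrophy and FoxO genes 15 did (median 0.09), among them Trim63, a muscle ubiquitin ligase gene, with 151 to 257 FPKM at ZT18 (median 217) and 97.7 to 205 FPKM at ZT12 (median 166; 0.43, adjusted p = 0.185). Ucp3, the muscle uncoupling protein gene of the fasting list, lay between 57.1 and 114 FPKM at ZT18 (median 82.9) and between 35.5 and 64.5 FPKM at ZT12 (median 54.3; 0.69, adjusted p = 0.0526). The myogenic factor gene Myod1 lay between 11.3 and 29.4 FPKM at ZT18 (median 14.8) and between 6.56 and 13.2 FPKM at ZT12 (median 11.1; 0.63, adjusted p = 0.0787). Its groups and those of Ucp3 overlapped.

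In the remaining lists the members nearest to the threshold lay in both directions. Iigp1, an interferon-inducible GTPase gene, lay between 33.2 and 69.0 FPKM at ZT18 (median 37.1) and between 12.2 and 40.4 FPKM at ZT12 (median 18.4). Its difference of 0.997 did not pass (adjusted p = 0.0568). It passed in 3 of the 16 left-out fits, among them that without control ZT18 library 0 (adjusted p = 0.0348). In the other fits the adjusted p reached 0.114. Irf1, a transcription factor gene of the same response, lay between 4.07 and 6.58 FPKM at ZT18 (median 5.17) and between 5.27 and 9.02 FPKM at ZT12 (median 7.18; -0.41, adjusted p = 0.0671). Of 22 interferon genes 8 had differences above 0, so that these 2 members had differences of opposite sign, neither of which passed. Kdm3a, a histone demethylase gene induced by hypoxia, lay between 3.70 and 4.93 FPKM at ZT18 (median 4.65) and between 4.93 and 5.90 FPKM at ZT12 (median 5.63). Its groups did not overlap, yet the difference of -0.23 did not pass (adjusted p = 0.0517). Osgin1, a gene of the oxidative stress response, lay between 10.51 and 17.2 FPKM at ZT18 (median 12.6) and between 4.85 and 10.99 FPKM at ZT12 (median 10.1; 0.50, adjusted p = 0.0742). Slc6a8, the creatine transporter gene, lay between 24.4 and 37.3 FPKM at ZT18 (median 31.1) and between 34.3 and 44.0 FPKM at ZT12 (median 38.0; -0.31, adjusted p = 0.0680). Igf1, the gene of the growth factor that acts on muscle mass, lay between 7.72 and 14.1 FPKM at ZT18 (median 8.82) and between 4.07 and 10.8 FPKM at ZT12 (median 6.18; 0.60, adjusted p = 0.0882). The groups of Osgin1, Slc6a8 and Igf1 overlapped. In total, 34 of the 49 lists held no called gene.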

How the data were processed

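Muscle RNA of 32 mice, 4 in each of 8 groups, was sequenced. Per the labels' protocols, Trizol and column extraction with a DNase step came before stranded mRNA libraries, which were read from a single end for 100 cycles, pooled 8 to a pool in 4 pools of unstated membership. The authors deposited FPKM values, 1 per gene and library. Per the submitters' processing notes the build was mm10, and no source used here names the aligner, quantifier or annotation. The authors' table of rhythm statistics was left out. Since FPKM holds no counts, depth is unknown in absolute terms and a count test was not run. In 921 genes, 62.9% of 14596 low values were whole multiples of a step to within 0.1, against 20% with no steps, which gave relative depth only. Columns were matched to groups by genotype and time, and the library number does not identify a mouse.

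Of 16634 genes, 11635 reached 1 FPKM in 4 or more of the ZT18 and ZT12 libraries (16 in all), and 11628 could be tested. An exact 0 of a gene whose other values have a median of at least 10 FPKM was set to missing, which affected 36 values in 12 tested genes such as Acta1. Differences are on log2(FPKM + 1), which understates the change of low genes, and come from limma 3.58.1 in R 4.3.3 (trended prior, 2-sided, Benjamini-Hochberg). Tests within genotypes, of genotype by time and against ZT6 minus ZT0 used 1 mean per group. Each p-value rests on the variation among mice, and an effect of harvest day was not tested. The scripts were tested on simulated data.

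Named genes were the 14 called genes with the largest differences in each direction (mean of at least 5 FPKM, 1 symbol, no missing value, same sign in both genotypes), the 6 with the largest FPKM differences in each direction, all core clock genes, up to 4 genes of smallest p per list, and the 6 of smallest p in the genotype and interval tests. A few genes that this rule names are not reported here. The interval, the gene lists and these choices were set with earlier results of these data known. Alternatives were quantile normalisation, median centring, a pseudocount of 0.1, other filters, zeros kept, array weights, cell-content covariates, other sets of samples and leaving out each library. The tendon and relative depth covariates were added after seeing the data.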

Additional observations from a re-analysis of the deposited data

Results flagged for a closer look

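In 10 of 196 groups of 4 libraries examined, 1 library lay far from the other 3 relative to the range of the group. The share was 5.10%, close to the 1 in 20 that chance gives. The Arntl value of control ZT18 library 0 was not flagged by this rule. Mutant ZT12 library 1 was high for Nr1d1 (118 FPKM, the others 61.5 to 64.6) and Plxnd1 (18.3 FPKM, the others 11.2 to 12.2) and low for Lmod2 (49.2 FPKM, the others 75.9 to 80.7). Mutant ZT18 library 0 was high for Lmod2 (169 FPKM, the others 124 to 130) and low for Per2 (7.63 FPKM, the others 9.17 to 9.48) and Cry2 (13.03 FPKM, the others 17.2 to 17.7). Single libraries were also apart for Sec14l5 in control mice at ZT18 (8.89 FPKM, the others 6.44 to 6.85), Arntl in mutants at ZT18 (1.13 FPKM, the others 1.48 to 1.52), Ciart in mutants at ZT12 (9.94 FPKM, the others 6.52 to 6.98) and Mtss1l in mutants at ZT12 (25.8 FPKM, the others 30.7 to 31.7).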

How the results depend on the processing

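No paired analysis was possible because the labels give no replicate numbers and the library numbers do not identify mice. The 100 called genes became 337 with array weights, 204 with 1 mean per group over all 32 libraries, 60 with the B and T cell and adipocyte covariates, 59 with no filter, 44 with the tendon covariate, 36 with the relative depth covariate, and 38 to 220 with 1 library left out. The other settings gave counts within 1.5 times. In mutants the 12 genes became 64 over all 32 libraries, 23 with quantile normalisation, 19 with a mean of at least 5 FPKM, 7 with the depth covariate, 4 with array weights, 3 with the tendon covariate or only the mutant libraries, 2 with no filter, and 2 to 379 with 1 library left out. In controls the 2 genes became 89 with array weights, 9 over all 32 libraries, 1 with quantile normalisation, no filter, a mean of at least 5 FPKM, the lymphoid and fat covariates or the depth covariate, 0 with only the control libraries, and 1 to 11 with 1 library left out. The genotype by time count of 0 became 1 with array weights and 0 to 38 with 1 library left out. Against ZT6 minus ZT0 the 669 genes became 1049 with array weights and 377 with the tendon covariate, and 501 to 823 with 1 library left out. The 34 genes without overlap became 40 to 93 with 1 library left out, where fewer values are compared. Among named genes, the Dbp difference reversed to 0.072 with array weights and ranged from -0.26 to 0.0497 with 1 library left out, and Cry2 (-0.023) and Per1 (-0.011) reversed with the depth covariate. The cause of these changes was not tested. Absolute depth is unknown, so no limit for genes near 0 can be given.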
